A study of Mus musculus with 8 samples.

Results

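The unfolded protein response and the integrated stress response were followed here through 31 genes. The cultures, with and without added S100A8/A9, are labelled as dendritic cells, although the sample titles read BMDMs. The 31 genes were matched by symbol in the authors' expression table, and all 31 were found among its 55450 genes. A second row with the symbol Ddit3, at no more than 0.045 FPKM in replicates 1 to 3, was not used, so 31 of the 32 matching rows were. By role they are 3 stress sensors (Ern1, Eif2ak3, Atf6), 3 transcription factors (Atf4, Xbp1, Ddit3), 13 folding genes of the endoplasmic reticulum, 6 genes of the degradation route out of it, and 6 target genes of the factor ATF4. The list rests on known roles in the pathway, and no measured value entered the rule. The members were, however, chosen with earlier results of these data known.

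Messenger RNA was sequenced from cells grown out of the bone marrow of SS dry eye mice, the disease model as the labels name it. One group of cultures received PBS and is called vehicle, and the other received recombinant S100A8/A9, a pair of calcium-binding proteins that neutrophils and other myeloid cells secrete at inflamed sites. Each group had 4 libraries, numbered 1 to 4. Both groups share the same disease model, and no culture from healthy mice, no dose, no treatment time, no age and no sex is given in the labels used here. The labels call the cells bone marrow-derived dendritic cells, although the sample titles carry the abbreviation BMDMs. Whether the libraries came from separate mice or cultures is not said, so each p-value covers only the spread between these libraries, which may be technical.

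Replicates 1 to 3 of both groups stand in 1 table and replicate 4 of both groups in another that was made separately, so the tests used the 6 libraries of the first table and replicate 4 is given beside them. Levels are in FPKM, fragments scaled to transcript length and to library size. Between 11180 and 11487 genes reached 1 FPKM per library in the first table. Replicate 4 corresponded to about 31900000 reads for vehicle and 33400000 for S100A8/A9, and the depth of replicates 1 to 3 is unknown. The 11 dendritic cell markers were uneven in replicates 1 to 3. Cd74 lay between 2530 and 3823 FPKM, H2-Ab1 between 327 and 671, Ccr7 between 141 and 227 and Itgax between 47.2 and 66.9 FPKM. Clec10a lay between 3.01 and 5.90 FPKM and Zbtb46 between 2.13 and 3.62 FPKM. Flt3, Xcr1, Clec9a and Dpp4 stayed below 1 FPKM and Cd209a was listed at 0. All 10 macrophage markers examined were above 5 FPKM in every library, among them Mrc1 and C1qa.

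Secreted and membrane proteins fold in the endoplasmic reticulum with the help of chaperones, and unfolded protein there activates the sensors IRE1 (encoded by Ern1), PERK (Eif2ak3) and ATF6. IRE1 splices Xbp1 mRNA into the form that encodes an active factor, ATF6 is cut to release one, and PERK phosphorylates the initiation factor eIF2 alpha, which lowers general translation and favours translation of Atf4. XBP1 and ATF6 drive chaperone and degradation genes, and ATF4, which other eIF2 alpha kinases also feed, drives genes of amino acid supply and of feedback. The IRE1 and XBP1 arm is known for its activity in dendritic cells. Gene-level FPKM do not separate spliced from unspliced Xbp1, and protein or phosphorylation was not measured.

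The regulatory letters that tie these genes to the pathway are shown first. Members that carry ERSE or ERSE-II had the same direction between replicate numbers, and so did the folding members without a match. Carriers of CARE did not all share a direction. Promoter windows of 250 bases before to 50 after the gene start were taken from RefSeq (GRCm38.p6), which held 27 of the 31 members, without Atf6, Manf, Derl1 and Hyou1. The motifs searched, on both strands, were the endoplasmic reticulum stress element ERSE (CCAAT and CCACG with 9 bases of any kind between them), ERSE-II (ATTGG and CCACG with 1 base of any kind between them), the unfolded protein response element UPRE (TGACGTGG) and the ATF4 composite site CARE (TGATGNAA). No match of one motif overlapped a match of another in the members. ERSE was found in 7 of the 27 members, 25.9%, and in 37 of all 27025 genes with a promoter, 0.137%. ERSE was described from chaperone promoters, so its presence in chaperone genes is background and not a result of these libraries. In the stretches below capitals mark the fixed bases of the motif, read 5′ to 3′ on the gene's strand. A stretch is shorter where a longer stretch would touch a gene of the GENCODE annotation on either strand. The gene starts are those of RefSeq, and the stretches of Hspa5 and Asns lie inside the GENCODE bounds of these genes.

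Hspa5, ERSE, chr2:34772020-34772048, plus strand: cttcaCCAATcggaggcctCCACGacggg
Hsp90b1, ERSE, chr10:86705613-86705681, minus strand: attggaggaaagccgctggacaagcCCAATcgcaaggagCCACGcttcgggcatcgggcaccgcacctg
Hsp90b1, ERSE, chr10:86705528-86705556, minus strand: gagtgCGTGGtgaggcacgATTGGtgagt
Pdia6, ERSE, chr12:17266466-17266534, plus strand: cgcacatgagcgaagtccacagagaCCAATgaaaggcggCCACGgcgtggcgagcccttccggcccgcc
Creld2, ERSE, chr15:88819495-88819563, plus strand: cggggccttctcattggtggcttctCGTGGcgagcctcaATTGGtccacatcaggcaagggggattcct
Dnajc3, ERSE, chr14:118937802-118937870, plus strand: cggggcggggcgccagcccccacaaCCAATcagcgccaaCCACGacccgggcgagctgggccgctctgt
Canx, ERSE, chr11:50325775-50325843, minus strand: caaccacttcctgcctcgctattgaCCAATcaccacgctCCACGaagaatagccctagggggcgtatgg
Syvn1, ERSE, chr19:6046507-6046575, plus strand: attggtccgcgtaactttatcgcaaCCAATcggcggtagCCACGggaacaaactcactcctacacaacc
Herpud1, ERSE-II, chr8:94386368-94386396, plus strand: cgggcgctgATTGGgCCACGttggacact
Herpud1, CARE, chr8:94386307-94386334, plus strand: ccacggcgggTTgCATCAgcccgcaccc
Asns, CARE, chr6:7693215-7693242, minus strand: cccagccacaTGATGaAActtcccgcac
Chac1, CARE, chr2:119351024-119351081, plus strand: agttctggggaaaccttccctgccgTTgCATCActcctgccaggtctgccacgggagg

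Hsp90b1 held 2 ERSE matches, and the match of Creld2 and the second of Hsp90b1 lay in the reverse orientation, CGTGG before ATTGG. ERSE-II was found in Herpud1 and, 8 bases after the start, in Dnajb11, 7.41% of the 27 members against 0.0444% of all genes with a promoter. CARE was found in Herpud1, Asns, Chac1 and, 15 bases after the start, Trib3. This is 14.8% of the 27 members against 4.51% of all genes with a promoter. UPRE was in none of the 27 and in 0.714% of all genes with a promoter. A missing match says only that these letters are not in the window.

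By level, the folding genes dominated the list. In vehicle, Hspa5 was the highest member at 196 ± 64.0 FPKM (SD, n = 3), followed by Hsp90b1 at 163 ± 57.4, Pdia3 at 119 ± 33.0 and Canx at 71.7 ± 13.5 FPKM. The replicate ranges of Hspa5, Hsp90b1 and Pdia3 overlapped from one to the next, and that of Canx lay below that of Pdia3. Atf4 ranked 5th at 66.0 ± 14.1 FPKM and Xbp1 8th at 49.6 ± 3.57 FPKM. The sensors were low, with Atf6 at 7.57 ± 0.67 FPKM, and the lowest members were Trib3 at 3.71 ± 1.27 and Chac1 at 0.71 ± 0.35 FPKM.

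**Figure D1:**
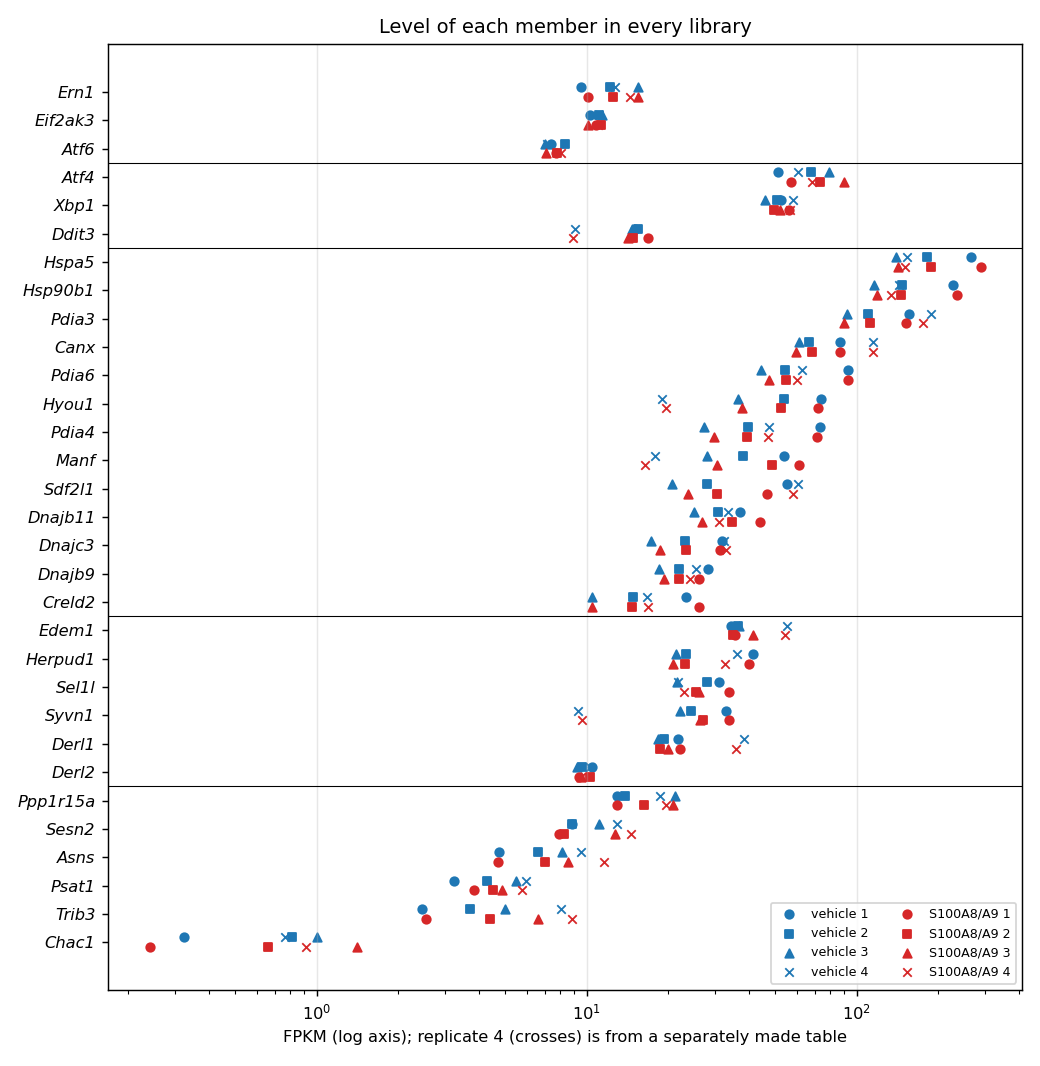
FPKM of the 31 members on a log axis, grouped from top to bottom as sensors, transcription factors, folding genes, degradation genes and ATF4 targets; blue is vehicle and red S100A8/A9, and circle, square, triangle and cross are replicates 1, 2, 3 and 4. In the folding genes the circles lie to the right of the triangles in both colours, while blue and red of one number lie close together.

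No gene of the list passed the test between S100A8/A9 and vehicle. Of the 31 members 30 reached the minimum for testing, 1 FPKM or more in 3 or more libraries of the 6, and Chac1 did not. In limma on log2(FPKM + 1) with group as the term, 0 of the 30 passed a Benjamini-Hochberg adjusted p under 0.05, where 0% of the 11387 genes tested did (0 genes, with 344 at an unadjusted p under 0.05). Each of the 30 had an adjusted p of 0.9998. Libraries of the same number deviated together, so the replicate number was also entered as a block: then 0 of the 30 passed, against 0.518% of all genes (59), and the smallest adjusted p among the members was 0.400. At an unadjusted p under 0.05 there were 0 members without the block and 3 with it, Manf, Dnajb11 and Atf4, against 344 and 908 of all genes.

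The group differences of the members were small and close to those of all genes. In the fitted data 21 members were higher and 9 lower with S100A8/A9, a split that turned to 10 higher of 30 with upper-quartile scaling and 12 of 30 with quantile normalization. Of the 11387 genes tested 6784 were higher and 4603 lower, and the split turned as well, to 4599 and 5205 higher with these 2 scalings. The median log2 difference was 0.032 over the members and 0.025 over all genes tested. Values ran from -0.032 in Herpud1 to 0.22 in Manf. With the block, the 95% intervals of the 30 members all lay between -0.23 and 0.43, that is between 0.851-fold and 1.35-fold on the FPKM + 1 scale. Of the 30 members 7 were higher in all 3 pairs of the same number, where 19.4% of all genes were, and 1 of 30, Herpud1, was lower in all 3 pairs, where 9.62% of all genes were. No member had all 3 S100A8/A9 libraries above all 3 vehicle libraries, which 4.71% of all genes had, and none had them all below, which 1.94% had. In the replicate 4 pair 13 of the 30 were higher and the median log2 difference was -0.016. Of all genes tested that had values there, 6150 of 11180 were higher, with a median of 0.016.

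**Figure D2:**
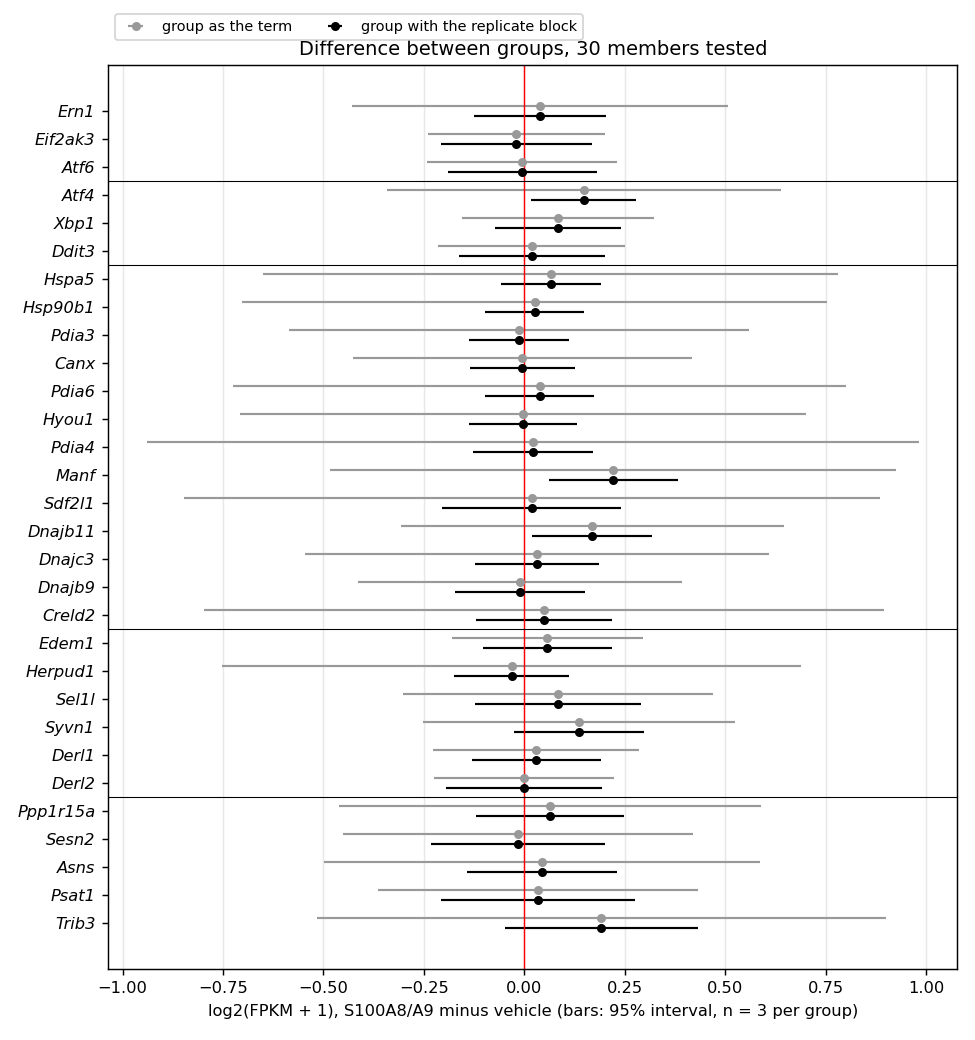
Log2 difference between S100A8/A9 and vehicle for the 30 members tested, with 95% intervals from the fit with group alone (grey) and with the replicate block (black), n = 3 per group; horizontal lines separate the roles. The grey intervals all cross 0, and the black ones of Manf, Dnajb11 and Atf4 do not, before adjustment over all genes.

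The larger difference in these genes lay between replicate numbers and was shared by both groups. For 29 of the 30 members the difference between numbers 3 and 1 was larger in size than the difference between groups. That count was not made over all genes. The median size of the difference between numbers was 0.62 on the log2 scale over the members and 0.20 over all genes, against group differences of 0.033 and 0.077. By the median, all genes thus also differed more between numbers. A number mean rests on 2 libraries and a group mean on 3, so the 2 kinds of difference are not measured alike. An F test of the replicate number, in limma with group and number as terms and chosen after the data were seen, passed for 20 of the 30 members (2 libraries per number), against 12.7% of all genes (1450). Number 1 was above number 3 in 15 of the 20, where 4.97% of all genes passed in that direction, and number 3 was above number 1 in 5, where 7.76% did. With median-of-ratios scaling the members split into 16 and 5, and all genes into 771 and 624 in place of 566 and 884. Without S100A8/A9 replicate 1 the test called 12 members and 517 genes, without vehicle replicate 1 it called 15 and 620, and without S100A8/A9 replicate 3 it called 14 and 617. With no filter on low values it called 0 of 31 members and 18 genes. What a replicate number stands for is not stated.

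**Figure D3:**
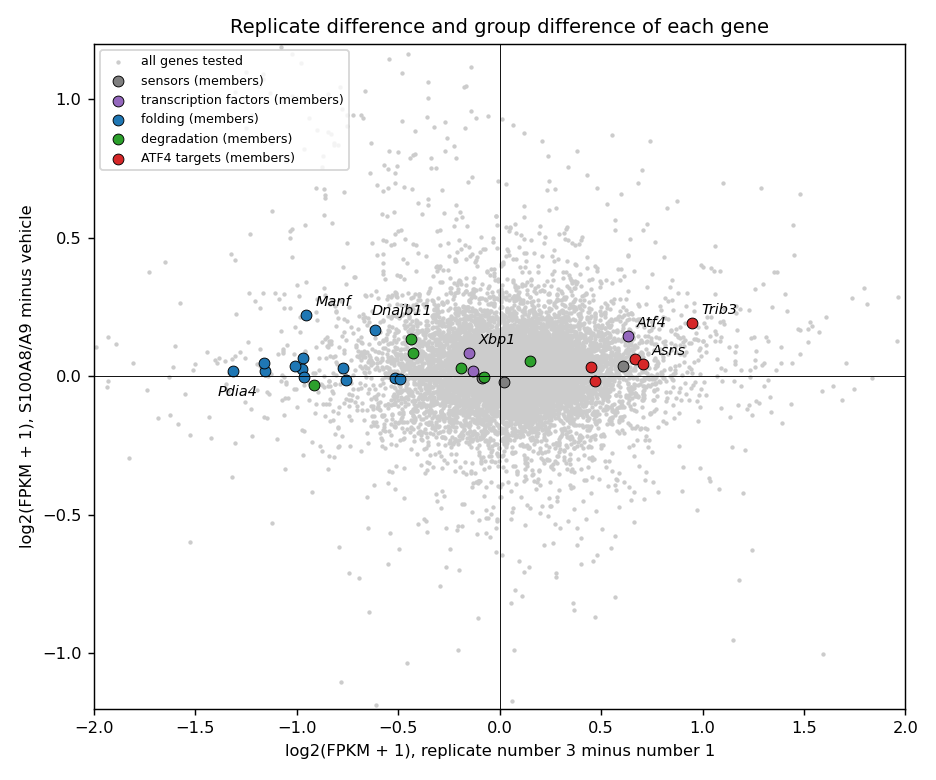
Each gene's log2 difference between replicate numbers 3 and 1 (horizontal) against its difference between S100A8/A9 and vehicle (vertical), with all 11387 genes tested in grey and the 30 members coloured by role; 47 genes lie outside the axes. The folding genes lie at the left and the ATF4 targets at the right, and all members lie near 0 on the vertical axis.

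Macrophage and hemoglobin transcripts differed between the same numbers. Of all genes 12.7% passed the F test of the replicate number, 4.97% with number 1 above number 3 and 7.76% the other way. All 10 macrophage markers passed it with number 1 above number 3. Mrc1 was at 75.0, 33.1 and 12.1 FPKM in vehicle 1, 2 and 3 and at 74.4, 31.3 and 12.3 FPKM with S100A8/A9. C1qa was at 32.3, 10.6 and 6.86 FPKM in vehicle and at 36.6, 11.2 and 7.60 FPKM with S100A8/A9. The summed level of the 10 markers ran from 3617 to 5948 FPKM in vehicle and from 3821 to 6135 FPKM in S100A8/A9. Most of this sum was Lyz2, at 5013 FPKM in vehicle 1 and 3128 FPKM in vehicle 3. The sum was not tested, and 0 of the 10 markers passed the test between groups, with or without the block. All 4 hemoglobin genes were higher in number 3, with Hba-a1 at 1.28, 3.87 and 45.9 FPKM in vehicle and 2.67, 2.03 and 52.7 FPKM in S100A8/A9. Of 13 neutrophil markers 5 were tested and all 5 passed. In 3 of them, S100a8, S100a9 and Mmp9, number 3 was above number 1, S100a8 with 9.72, 44.1 and 125 FPKM in vehicle. Csf3r, with 11.6, 6.19 and 4.59 FPKM in vehicle, and Mmp8, with 98.5, 59.8 and 68.5 FPKM, had number 1 above number 3. Ly6g, Mpo, Elane, Camp, Ltf, Ngp, Cxcr2 and Retnlg were too low for the test, with Elane and Ltf below 0.3 FPKM. Of 6 dendritic cell markers tested 4 passed, 3 with number 1 above number 3. Of 10 B and plasma cell markers 2 were tested. Sdc1, which plasma cells and other cell types carry, passed between numbers, with 53.7, 88.9 and 85.4 FPKM in vehicle and 53.0, 83.9 and 90.4 FPKM in S100A8/A9 (limma F test, adjusted p = 0.00416), and Ighm, at 3.98 to 5.45 FPKM, did not. Jchain, Mzb1 and Tnfrsf17, further genes of plasma cells, which are known for a large endoplasmic reticulum, were between 0 and 0.39 FPKM in the 6 fitted libraries. The part of these transcripts in the stress response differences was not tested, and in bulk RNA fewer cells of a type cannot be told apart from less RNA per cell.

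Among the folding genes, which bind unfolded protein, form disulphide bonds or assist the chaperone BiP, all 13 passed the F test of the replicate number with number 1 above number 3. Over all genes 4.97% passed in that direction. All 13 were also highest in number 1 and lowest in number 3 in both groups, an order that 8.02% of all genes showed. Their median log2 difference, number 3 minus number 1, was -0.96. With any single library left out 10 to 13 of the 13 passed, and without the filter on low values 0 did, while number 1 stayed above number 3 in 13 of 13. In the gene by gene values that follow, levels are listed for libraries 1, 2 and 3 in turn, and for replicate 4 as vehicle and then S100A8/A9. Group differences are in log2(FPKM + 1), S100A8/A9 minus vehicle, with the SE of the fit without the block and then with it (n = 3 per group). Hspa5 encodes BiP, the main chaperone of the compartment and the protein that holds the sensors inactive (mm10 chr2:34771970-34777547). It was at 266, 182 and 140.1 FPKM in vehicle and at 289, 189 and 142 FPKM with S100A8/A9, and at 154 and 151 FPKM in replicate 4. Number 1 was 1.96-fold above number 3 (limma F test, adjusted p = 0.00159). In no pair did the groups differ by as much, and the group difference was 0.065 ± 0.31, or ± 0.052 with the block (limma adjusted p = 0.845). Hsp90b1 encodes GRP94, the HSP90 of the endoplasmic reticulum (chr10:86690209-86705509). It was at 227, 147 and 116 FPKM in vehicle and at 236, 146 and 119 FPKM with S100A8/A9, and at 143 and 134 FPKM in replicate 4. Its number 1 libraries were 1.97-fold above its number 3 libraries (limma F test, adjusted p = 0.00142), and the group difference was 0.026 ± 0.31, or ± 0.051 with the block (limma adjusted p = 0.953).

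Dnajb9 (ERdj4) and Dnajb11 (ERdj3) encode co-chaperones that hand substrates to BiP. Dnajb9 was at 28.1, 21.9 and 18.5 FPKM in vehicle and at 26.0, 22.03 and 19.4 FPKM with S100A8/A9, and at 25.5 and 24.2 FPKM in replicate 4. The 2 groups overlapped, and the group difference was -0.011 ± 0.17, or ± 0.067 with the block (limma adjusted p = 0.989). Dnajb11 was at 36.9, 30.6 and 25.01 FPKM in vehicle and at 43.7, 34.7 and 26.7 FPKM with S100A8/A9, and at 33.3 and 30.9 FPKM in replicate 4. It was higher with S100A8/A9 in pairs 1, 2 and 3 and lower in pair 4, the ranges overlapped, and the group difference was 0.17 ± 0.20, or ± 0.062 with the block (limma adjusted p = 0.548). Manf encodes a secreted protein of the stressed endoplasmic reticulum that binds BiP (chr9:106838312-106891979). It was at 53.7, 37.9 and 27.9 FPKM in vehicle and at 61.3, 48.6 and 30.5 FPKM with S100A8/A9, and at 17.9 and 16.5 FPKM in replicate 4. S100A8/A9 was above vehicle in pairs 1, 2 and 3, by 1.17-fold in geometric mean, and below it in pair 4, and the group difference was 0.22 ± 0.30, or ± 0.067 with the block (limma adjusted p = 0.4000). Manf overlaps Rbm15b and Dcaf1, at 3.61 and 2.40 FPKM, and strand use is not stated, so shared reads cannot be told apart.

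The other folding members were Pdia3, Pdia4 and Pdia6, disulphide isomerases; Canx, the lectin chaperone calnexin; Hyou1, a nucleotide exchange factor for BiP; Dnajc3 and Sdf2l1, BiP partners; and Creld2, a calcium-binding isomerase. Number 1 stood above number 3 by 1.44-fold in Canx, the smallest of these, to 2.54-fold in Pdia4, the largest of all members and named for that after its values were seen. Pdia4 was at 73.4, 39.7 and 27.3 FPKM in vehicle 1, 2 and 3 and at 71.5, 39.1 and 29.7 FPKM in S100A8/A9 1, 2 and 3. Their log2 group differences, averaged over the 3 pairs, ran from -0.013 in Pdia3 to 0.049 in Creld2. Single pairs ranged more widely, with Sdf2l1 at the ends of the range, its log2 ratios of FPKM being -0.24, 0.12 and 0.19 in pairs 1, 2 and 3. Replicate 4 did not hold one place in the order. It lay between numbers 1 and 3 for Hspa5, below number 3 for Hyou1, with 19.0 and 19.7 FPKM, and above number 1 for Canx, with 115 and 115 FPKM; as its table was made separately, these levels are set side by side only.

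**Figure D4:**
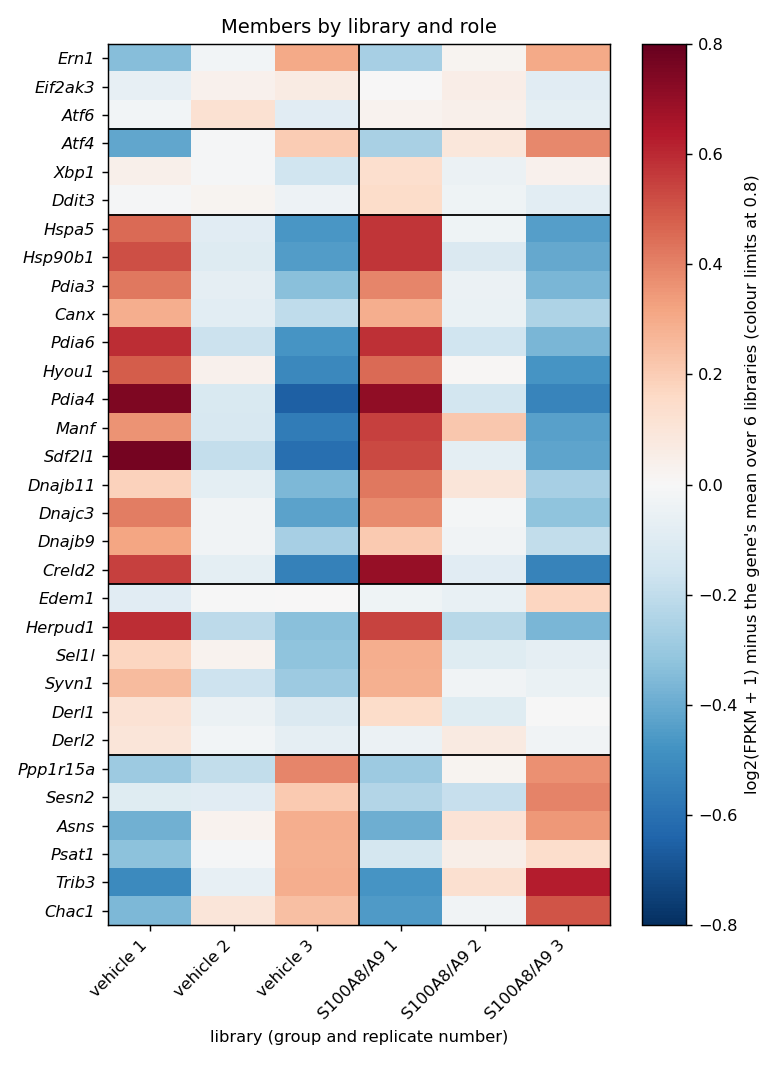
Log2(FPKM + 1) of each member minus its mean over the 6 libraries, red above and blue below, with members in rows by role and libraries in columns by group and replicate number. The 13 folding genes are red in both number 1 columns and blue in both number 3 columns, and the 6 ATF4 targets show the opposite colours.

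The degradation genes, which pull misfolded proteins back to the cytosol for the proteasome, had 2 of 6 members past the F test, both with number 1 above number 3. Of all genes 4.97% passed in that direction and 12.7% in either. Whether the groups of genes differ from each other was not tested. Herpud1 encodes a membrane scaffold of the degradation complex (chr8:94386438-94395377). It was at 41.5, 23.4 and 21.4 FPKM in vehicle and at 40.00, 23.2 and 20.9 FPKM with S100A8/A9, and at 35.9 and 32.6 FPKM in replicate 4. Number 1 was 1.93-fold above number 3 (limma F test, adjusted p = 0.0023) and the group difference was -0.032 ± 0.31, or ± 0.059 with the block (limma adjusted p = 0.948). Syvn1 encodes HRD1, the ubiquitin ligase of the complex. It was at 32.8, 24.4 and 22.3 FPKM in vehicle and at 33.6, 26.9 and 26.4 FPKM with S100A8/A9, and at 9.27 and 9.58 FPKM in replicate 4. Number 1 was 1.37-fold above number 3 (limma F test, adjusted p = 0.033), pairs 1, 2 and 3 were 1.024-fold, 1.102-fold and 1.187-fold higher with S100A8/A9, and the group difference was 0.13 ± 0.17, or ± 0.067 with the block (limma adjusted p = 0.720). It overlaps Mrpl49 on the other strand, at 5.26 FPKM.

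Sel1l encodes the partner of HRD1. It was at 30.9, 28.0 and 21.6 FPKM in vehicle and at 33.7, 25.5 and 26.0 FPKM with S100A8/A9, and at 21.9 and 22.9 FPKM in replicate 4. The groups overlapped, and the group difference was 0.083 ± 0.16, or ± 0.086 with the block (limma adjusted p = 0.884). Edem1, which takes mannose off misfolded glycoproteins, was at 34.2, 36.3 and 36.5 FPKM in vehicle and at 35.6, 35.0 and 41.2 FPKM with S100A8/A9, and at 55.4 and 54.2 FPKM in replicate 4. Its libraries lay close together in the first table, and the group difference was 0.057 ± 0.10, or ± 0.067 with the block (limma adjusted p = 0.899). Derl1 encodes a derlin of the retrotranslocation channel. It was at 21.7, 19.4 and 18.4 FPKM in vehicle and at 22.2, 18.7 and 19.9 FPKM with S100A8/A9, and at 38.3 and 35.7 FPKM in replicate 4. No library stood apart within a table, and the group difference was 0.029 ± 0.11, or ± 0.067 with the block (limma adjusted p = 0.962). Derl2, the second derlin, ran from 9.22 to 10.5 FPKM over the 6 libraries and overlaps Mis12.

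The sensors stayed within narrow ranges apart from Ern1. Ern1, the gene of IRE1, was at 9.55, 12.2 and 15.5 FPKM in vehicle and at 10.1, 12.5 and 15.5 FPKM with S100A8/A9, and at 12.7 and 14.4 FPKM in replicate 4. It passed the F test the other way, with the number 3 libraries 1.57-fold above the number 1 libraries (limma F test, adjusted p = 0.0161), and the group difference was 0.039 ± 0.20, or ± 0.068 with the block (limma adjusted p = 0.943). Eif2ak3, the gene of PERK, was at 10.3, 11.1 and 11.4 FPKM in vehicle and at 10.9, 11.3 and 10.1 FPKM with S100A8/A9, and at 10.5 and 11.0 FPKM in replicate 4. Neither group nor number separated its libraries (F test, limma adjusted p = 0.801), and the group difference was -0.021 ± 0.094, or ± 0.078 with the block (limma adjusted p = 0.979). Atf6 was at 7.39, 8.30 and 7.002 FPKM in vehicle and at 7.69, 7.79 and 7.10 FPKM with S100A8/A9, and at 7.11 and 8.01 FPKM in replicate 4. The groups overlapped, no library stood apart, and the group difference was -0.0051 ± 0.10, or ± 0.077 with the block (limma adjusted p = 0.997).

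Of the transcription factors only Atf4 passed the F test among the 3. Atf4 (chr15:80255184-80257541) was at 51.0, 68.0 and 78.9 FPKM in vehicle and at 57.0, 73.0 and 89.7 FPKM with S100A8/A9, and at 60.4 and 68.6 FPKM in replicate 4. Number 3 was 1.56-fold above number 1 (limma F test, adjusted p = 0.00694), opposite to the folding genes. S100A8/A9 was the higher library in all 4 pairs, by 1.12-fold, 1.07-fold, 1.14-fold and 1.13-fold, the ranges of the groups overlapped, and the group difference was 0.15 ± 0.21, or ± 0.054 with the block (limma adjusted p = 0.550). Xbp1 (chr11:5520659-5525893) was at 52.5, 50.5 and 45.6 FPKM in vehicle and at 56.1, 49.3 and 52.2 FPKM with S100A8/A9, and at 58.3 and 56.6 FPKM in replicate 4. Its libraries lay within a narrow band, and the group difference was 0.083 ± 0.10, or ± 0.065 with the block (limma adjusted p = 0.844). Ddit3 encodes CHOP, a factor of prolonged stress. It was at 15.0, 15.4 and 14.7 FPKM in vehicle and at 16.9, 14.8 and 14.2 FPKM with S100A8/A9, and at 9.02 and 8.93 FPKM in replicate 4. Its F test of the replicate number gave a limma adjusted p of 0.564, and the group difference was 0.018 ± 0.10, or ± 0.075 with the block (limma adjusted p = 0.982). It overlaps Mars on the other strand, at 6.21 FPKM.

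The members given the role of ATF4 targets showed the order of Atf4. In 5 of 5 tested, and in Chac1, number 3 was highest and number 1 lowest in both groups, an order that 15.9% of all genes showed. Of the 5, 3 passed the F test, where 7.76% of all genes did in that direction. Without S100A8/A9 replicate 1, or without S100A8/A9 replicate 3, 0 of the 5 passed, with number 3 still above number 1 in all 5. Trib3 encodes a pseudokinase that restrains the response. It was at 2.45, 3.69 and 4.999 FPKM in vehicle and at 2.54, 4.37 and 6.59 FPKM with S100A8/A9, and at 8.03 and 8.85 FPKM in replicate 4. Number 3 was 2.30-fold above number 1 (limma F test, adjusted p = 0.0133), all 4 pairs were higher with S100A8/A9, and the group difference was 0.19 ± 0.30, or ± 0.10 with the block (limma adjusted p = 0.736). Asns, asparagine synthetase, was at 4.72, 6.60 and 8.12 FPKM in vehicle and at 4.69, 7.04 and 8.50 FPKM with S100A8/A9, and at 9.52 and 11.6 FPKM in replicate 4. Number 3 was 1.77-fold above number 1 (limma F test, adjusted p = 0.0146), and the group difference was 0.043 ± 0.23, or ± 0.078 with the block (limma adjusted p = 0.946). Ppp1r15a encodes GADD34, which directs a phosphatase to eIF2 alpha. It was at 12.9, 13.9 and 21.3 FPKM in vehicle and at 12.9, 16.3 and 20.9 FPKM with S100A8/A9, and at 18.6 and 19.7 FPKM in replicate 4. Number 3 was 1.63-fold above number 1 (limma F test, adjusted p = 0.0161), and the group difference was 0.063 ± 0.22, or ± 0.077 with the block (limma adjusted p = 0.9003).

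Chac1 encodes an enzyme that degrades glutathione. It was at 0.32, 0.81 and 1.00 FPKM in vehicle and at 0.24, 0.66 and 1.41 FPKM with S100A8/A9, and at 0.77 and 0.91 FPKM in replicate 4. It was too low for the test, with 1 FPKM or more in number 3 alone. Sesn2, a stress-induced sestrin, ran from 7.88 to 12.8 FPKM, and Psat1, of serine synthesis, from 3.24 to 5.48 FPKM in the 6 libraries. Their F tests gave limma adjusted p values of 0.0551 and 0.111. Outside this role the order of Atf4 was not general. The log2 difference, number 3 minus number 1, was -0.91 in Herpud1, which carries CARE, and -0.13 in Ddit3. Of 35 other integrated stress response genes tested, 16 had the order of Atf4 in both groups and 2 the reverse order. Among the 35, Phgdh, Psph and Aldh18a1 had log2 differences between these numbers of -0.27, -0.11 and -0.27.

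The promoter letters can be set beside these values. All 7 members with ERSE, namely Hspa5, Hsp90b1, Dnajc3, Pdia6, Canx, Creld2 and Syvn1, were among the 15 with number 1 above number 3. Over all genes tested with a promoter, 13 held ERSE and 8 of these passed in that direction, the eighth being Calr, out of 410 that did. None of the 640 that passed with number 3 above number 1 held ERSE, a motif found in 0.157% of the 8266 tested genes with a promoter. Outside the members ERSE was in 6 tested genes, of which only Calr passed with number 1 above number 3, 1 of the 397 that did. Herpud1 and Dnajb11, with ERSE-II, were in the same group of 15. So were Dnajb9, Sdf2l1, Pdia3 and Pdia4, folding members with neither motif in the window, so the direction was not particular to carriers of the motifs. Trib3 and Asns, with CARE, were among the 5 with number 3 above number 1, whereas Herpud1, with CARE as well, was among the 15 with number 1 above number 3, and Chac1, with CARE, was not tested. Over all genes CARE was in 5.37% of those that passed with number 1 above number 3, in 3.12% of those that passed the other way and in 2.83% of all tested. These are descriptions of letters and levels and show no binding.

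Other genes of the pathway were followed in 5 further lists. With group as the term 0 of the 115 tested passed, where 0% of all 11387 genes tested did. With the replicate block 1 of the 115, Eif2ak2, passed, where 0.518% of all genes did (59). A single call among 115 genes is near that share. Eif2ak2 encodes PKR, the eIF2 alpha kinase activated by double-stranded RNA and induced by interferon. It was at 12.3, 11.1 and 7.06 FPKM in vehicle and at 24.2, 19.3 and 11.3 FPKM with S100A8/A9, and at 11.6 and 13.3 FPKM in replicate 4. Each S100A8/A9 library was above the vehicle library of its number, by 1.76-fold in geometric mean over pairs 1 to 3, although the groups overlapped. The log2 difference was 0.76 ± 0.29 (SE) without the block (limma adjusted p = 0.9998) and ± 0.082 with it (limma adjusted p = 0.0298). With the block the call was lost under median-of-ratios scaling (limma adjusted p = 0.0865), with all 8 libraries (0.278), without number 1 (0.0676) and without number 3 (0.0729). The kinases of heme and amino acid shortage, Eif2ak1 and Eif2ak4, had log2 differences of -0.029 ± 0.071 and -0.034 ± 0.13 (SE with the block) and did not pass.

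Among 35 tested of 43 other integrated stress response genes 20 were higher and 15 lower with S100A8/A9, with a median of 0.042, and 16 higher and 19 lower with upper-quartile factors. Between numbers 15 of the 35 passed, 13 of them with number 3 above number 1, where 12.7% and 7.76% of all genes did. Atf3, a stress-induced factor, was at 33.4, 42.97 and 43.8 FPKM in vehicle and at 37.8, 45.1 and 60.1 FPKM with S100A8/A9, and at 99.4 and 114 FPKM in replicate 4. It was higher in all 4 pairs, and the group difference was 0.23 ± 0.19, or ± 0.084 with the block (limma adjusted p = 0.539). Slc7a11, the cystine transporter, named after its values were seen, was at 32.1, 41.9 and 67.3 FPKM in vehicle 1, 2 and 3 and 38.1, 47.4 and 75.6 FPKM in S100A8/A9 1, 2 and 3. The exceptions, with number 1 above number 3, were Eif2ak2 and Txnip, the latter named after its values were seen.

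Of 21 other folding genes 19 were tested, 11 higher and 8 lower between groups, with a median of 0.012, and 5 higher and 14 lower with upper-quartile factors. Between numbers 7 of the 19 passed, 6 with number 1 above number 3, where 12.7% and 4.97% of all genes did. The remaining gene was Ero1l, an oxidase of the compartment, named after its values were seen. Calr, the soluble lectin chaperone calreticulin, was at 395, 272 and 224 FPKM in vehicle and at 406, 285 and 247 FPKM with S100A8/A9, and at 369.9 and 376 FPKM in replicate 4. It followed the order of the folding members, with the number 1 libraries 1.70-fold above the number 3 libraries (limma F test, adjusted p = 0.00311). P4hb, the founding disulphide isomerase, was at 213, 185 and 179 FPKM in vehicle and at 202, 184 and 183 FPKM with S100A8/A9, and at 242 and 250.2 FPKM in replicate 4. Its number 1 libraries were 1.15-fold above its number 3 libraries and it did not pass (limma F test, adjusted p = 0.142). Ero1lb and Dnajc1, with the list's smallest p values between groups in the fit without the block, had log2 differences of 0.12 ± 0.078 and -0.11 ± 0.089 (SE with the block).

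The 30 translocation genes carry new proteins into the compartment, and 29 were tested. Between groups 25 were higher and 4 lower with a median of 0.032, beside 6784 higher and 4603 lower of all genes tested, and none passed. With upper-quartile factors the split turned to 10 higher and 19 lower, as the median of all genes went from 0.025 to -0.026. Sec61g, of the channel, had a log2 difference of -0.22 ± 0.15 and Srp9, of the signal recognition particle, one of 0.12 ± 0.085 (SE with the block). Between numbers 13 of the 29 passed, all with number 1 above number 3, where 4.97% of all genes passed in that direction. The 21 further degradation genes were split 12 higher and 9 lower between groups, or 7 and 14 with upper-quartile factors, with Faf2 at -0.11 ± 0.077 and Edem3 at -0.10 ± 0.081. Between numbers 2 of the 21 passed, where 12.7% of all genes did in either direction. These were Os9 with number 1 above number 3 and Nploc4 the other way, both named after their values were seen. Of 14 partners of the sensors 11 were tested and 0 passed between numbers; Mbtps1, the protease that cuts ATF6, had a log2 group difference of 0.14 ± 0.076 and Nfyc, of the factor that binds CCAAT, one of -0.16 ± 0.088 (SE with the block).

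**Figure D5:**
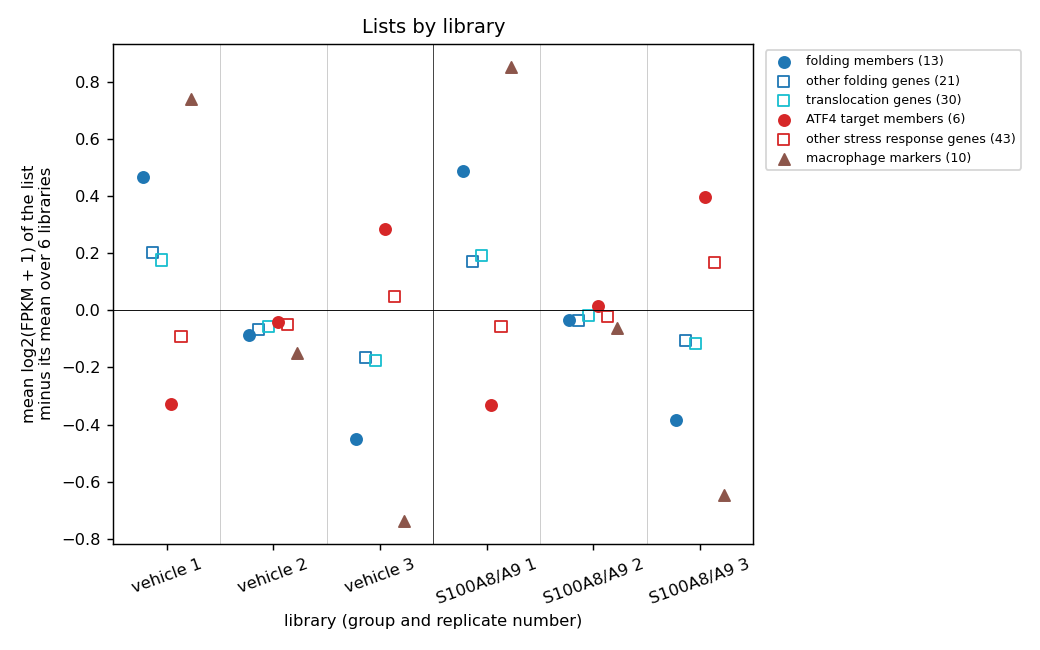
Mean log2(FPKM + 1) of 6 gene lists in each of the 6 libraries, minus the list's mean over them; numbers in the legend are genes per list. The folding members lie above 0 in both number 1 libraries and below it in both number 3 libraries, as do the macrophage markers, and the ATF4 target members lie the other way.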

How the data were processed

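Per the labels' protocols, poly(A) RNA was fragmented, copied from random primers and run on an Illumina platform. The authors deposited FPKM for each Ensembl gene, as judged from the values because neither label nor header names the unit. Tools listed in the submitters' processing notes are HISAT2, Subread and its featureCounts, and DESeq2 1.34.0, with the build mm10. The authors made 2 tables, of 55450 genes (replicates 1 to 3) and 24848 genes (replicate 4), with 24388 genes in both. Given exon lengths of the GENCODE annotation, 98.6% and 98.8% of low replicate 4 values were whole reads within 0.01 reads, against 5.50% to 6.18% in replicates 1 to 3, so their making differed, and no depth can be given for replicates 1 to 3.

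Genes that reached 1 FPKM in 3 or more of 6 libraries were tested with limma-trend (limma 3.58.1, R 4.3.3) on log2(FPKM + 1), two-sided, with Benjamini-Hochberg adjustment over all genes tested. Differences on this scale understate the change of low genes. Folds are geometric means of FPKM ratios. The scripts were tested on simulated data. Deviations from the group means correlated at 0.595, 0.254 and 0.52 between libraries of the same number and from -0.531 to -0.01 between different numbers. The numbers were therefore taken to pair the libraries, from these values and not from the labels, and the fit with the number as a block is given beside the main one.

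The members and lists were chosen with earlier results of these data known. All members are named; full values are given for the 12 with the smallest p without the block and for 13 fixed genes, and from each further list the 2 genes with the smallest p and 6 fixed genes are named. Promoters were read from RefSeq, GRCm38.p6. Protein sequences were not used here. Alternatives changed the pseudocount, the filter, the scaling, the trend, the libraries and the block.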

Additional observations from a re-analysis of the deposited data

Results flagged for a closer look

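Over the 31 members the log2 FPKM ratios of the 4 pairs were examined for a pair that stood apart, and 2 did. Replicate 3 of Pdia4, at 0.126, lay above the other pairs by 0.872 of the whole range. Replicate 1 of Creld2, at 0.158, lay above the other pairs by 0.846 of it. Chance passes Dixon's limit for 4 values in about 1 in 20 groups.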

How the results depend on the processing

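No member passed the group comparison under any alternative run, with or without the replicate block. With the replicate block all genes went from 0 to 59 calls, 57 of them higher, and the other pathway genes from 0 to 1. With median-of-ratios factors and the block all genes had 3 calls. Leaving out a library or both libraries of a number gave 0 to 98 calls over all genes (0 or 1 where a single library was left out, and 40, 98 and 7 with the block and without numbers 1, 2 and 3) and 0 or 1 over the other pathway genes. The members' median log2 difference, 0.032, moved to 0.0058 with median-of-ratios factors, with or without the block, to -0.022 with upper-quartile factors and to -0.025 with quantile normalization, and ran from -0.031 without S100A8/A9 replicate 1 to 0.14 without vehicle replicate 1. The test between replicate numbers called 18 genes and 0 members with no filter on low values and 637 genes without the trend, and leaving out single libraries gave 517 to 1310 genes and 12 to 20 members. The cause was not tested, except that a single library left out unbalances the numbers between the groups by construction.

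The sign of the group difference changed for 28 members under at least 1 alternative. Single libraries were left out in the fit without the block, which leaves the replicate numbers unbalanced between the groups. With both libraries of a number left out and the block, the members' median log2 difference ran from 0.017 to 0.048. With a common FPKM sum the sign changed for Ddit3 -0.00095 and Sdf2l1 -0.0016. With median-of-ratios factors, with or without the block, it changed for Hsp90b1 -0.0039, Ddit3 -0.0096, Sdf2l1 -0.011 and Pdia4 -0.0081. With upper-quartile factors it changed for Hsp90b1 -0.032, Ern1 -0.015, Ddit3 -0.036, Dnajc3 -0.024, Sdf2l1 -0.038, Pdia4 -0.036, Pdia6 -0.019, Creld2 -0.0048, Derl1 -0.026, Asns -0.0075 and Psat1 -0.014. With quantile normalization it changed for Hsp90b1 -0.025, Ern1 -0.010, Ddit3 -0.043, Dnajc3 -0.035, Sdf2l1 -0.037, Pdia4 -0.043, Pdia6 -0.025, Edem1 -0.0074 and Derl1 -0.026. With all 8 libraries it changed for Hsp90b1 -0.0037, Atf6 0.034, Eif2ak3 0.0012, Derl1 -0.0025, Hyou1 0.0091 and Sesn2 0.029. With libraries left out the log2 difference ran over these ranges: Hspa5 -0.21 to 0.31, Hsp90b1 -0.25 to 0.29, Atf4 -0.024 to 0.31, Atf6 -0.053 to 0.056, Ern1 -0.12 to 0.20, Eif2ak3 -0.066 to 0.045, Ddit3 -0.052 to 0.066, Trib3 -0.075 to 0.47, Herpud1 -0.31 to 0.25, Dnajb9 -0.15 to 0.14, Dnajb11 -0.00060 to 0.34, Dnajc3 -0.18 to 0.24, Sdf2l1 -0.28 to 0.41, Pdia3 -0.21 to 0.20, Pdia4 -0.33 to 0.40, Pdia6 -0.25 to 0.34, Canx -0.15 to 0.14, Creld2 -0.29 to 0.33, Manf -0.0054 to 0.49, Edem1 -0.016 to 0.11, Sel1l -0.059 to 0.19, Derl1 -0.035 to 0.094, Derl2 -0.049 to 0.070, Hyou1 -0.26 to 0.24, Ppp1r15a -0.10 to 0.27, Asns -0.14 to 0.25, Sesn2 -0.22 to 0.098 and Psat1 -0.12 to 0.18. Between numbers 3 and 1, Eif2ak3 changed from 0.021 to -0.069, -0.076 and -0.059 with median-of-ratios, upper-quartile and quantile scaling and ran from -0.079 to 0.12 with libraries left out, and Derl2 from -0.18 to 0.031. The depth of replicates 1 to 3 is unknown and only 3 libraries per group were fitted, which limits the precision.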
